A study of Equus caballus with 6 samples.

Results

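ZFAND5 and PNRC1 are a pair of genes whose brightest probe sets gave bright signals and stood higher in laminitis. The dimmest probe set of each lay below the array medians, with overlapping groups. Both genes were studied here on every probe set that the platform annotation assigns to either symbol alone. That rule found 2 probe sets for ZFAND5 and 4 for PNRC1, so 6 probe sets for 2 of the 9155 gene symbols on the array. The 2 genes were chosen by their measured signals, since an earlier analysis of these same 6 arrays had shown them bright and higher in laminitis. Their levels are therefore a description of that choice, and no test of the difference is given for them.

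The data are transcript signals of equine lamellar hoof tissue, the interlocking epidermis and dermis that hangs the coffin bone inside the hoof wall. Laminitis, in which this attachment fails, was compared with normal tissue, and every sample came from a right foot. Diseased tissue was read on 3 arrays, numbered 1, 3 and 4 in the labels, and healthy tissue on 3 others, numbered 2, 3 and 4. The sources used here do not give the horses' age, sex or breed, how laminitis came about, any treatment, or whether each sample is a separate horse. Each p-value therefore reflects the scatter among these 6 samples alone, part of which may be technical. Horse RNA was read with bovine probes, so a probe set with poor sequence match reads low whatever the transcript level, and the number of arrays limits the precision.

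ZFAND5 encodes a zinc finger protein with an A20-type and an AN1-type finger. It binds polyubiquitin and the 26S proteasome, stimulates protein breakdown, and is known for its induction in wasting skeletal muscle. It has also been described as a restraint on NF-kB signalling and as a protein that binds AU-rich messenger RNA. PNRC1, proline-rich nuclear receptor coactivator 1, binds nuclear receptors through a short proline-rich motif. It can also carry the mRNA decapping enzyme into the nucleolus, where the early processing of ribosomal RNA is then slowed. Its paralogue PNRC2 joins the decapping enzyme to the nonsense-mediated decay factor UPF1.

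Probe sets are numbered below by their brightness within a gene. ZFAND5 was read brightly by its probe set 1, whose signals on the deposited linear scale were 10185, 8600.1 and 6158 on laminitis replicates 1, 3 and 4. On normal replicates 2, 3 and 4 the signals were 2612, 2127 and 1942. All 3 laminitis arrays lay above all 3 normal arrays, and the lowest laminitis signal was 2.36 times the highest normal signal. The mean was 8314 ± 2029 in laminitis and 2227 ± 346 in normal tissue (SD, n = 3 each). As a ratio of geometric means ZFAND5 was 3.68-fold higher in laminitis, a log2 difference of 1.88 ± 0.25 (limma SE). This probe set lay between the 98.7th and the 99.8th percentile of all probe sets on every array, which describes the probe signal and not the abundance of the transcript. Its signal was 21.0 to 27.1 times the array median in normal tissue and 66.1 to 117 times in laminitis.

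The other ZFAND5 probe set, set 2, did not show the difference. It read 51.3, 57.3 and 80.1 on laminitis replicates 1, 3 and 4 and 80.4, 57.9 and 82.8 on normal replicates 2, 3 and 4. The groups overlapped, with a log2 difference of -0.24 ± 0.28, and every value lay below its array's median, from 0.592 to 0.894 times that median. It was too dim to be tested under the filter used here, which asks for a signal above the array median on at least 3 of 6 arrays. The log2 difference of ZFAND5 thus rests on a single bright probe set, and the mean log2 difference over both was 0.82.

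For PNRC1, the signals of probe set 1 were 6684, 6289 and 4706 on laminitis replicates 1, 3 and 4, and 1848, 1973 and 2005 on normal replicates 2, 3 and 4. The groups did not overlap, and the lowest laminitis signal was 2.35 times the highest normal signal. Mean signals were 5893 ± 1047 in laminitis and 1942 ± 83 in normal tissue (SD, n = 3 each), a log2 difference of 1.59 ± 0.21, or 3-fold. The normal arrays lay close together, with the highest 1.08 times the lowest, while the laminitis arrays spread 1.42-fold.

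Of the other PNRC1 probe sets, sets 2 and 3 cleared the brightness filter and set 4 did not. Set 2 read 500.2, 1592 and 612.7 on laminitis replicates 1, 3 and 4, against 226.1, 152.8 and 307.7 on normal replicates 2, 3 and 4. Its log2 difference was 1.84 ± 0.48. Laminitis replicate 3 stood far above the other arrays there, and without it the difference was 1.33. Set 3 read 416.4, 588.5 and 489.7 in laminitis and 200.9, 384.5 and 157.1 in normal tissue, in the same replicate order. Its log2 difference was 1.102 ± 0.354, and the groups were separated by little, since the lowest laminitis signal was 1.08 times the highest normal one. The dim set 4 read 29.1, 25.8 and 88.1 in laminitis and 15.5, 35.2 and 25.7 in normal tissue, below the array median throughout. Its groups overlapped, with a log2 difference of 0.75 ± 0.56, which was 0.18 without laminitis replicate 4.

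Probe sets of a gene share the RNA and the arrays and are not replicates of each other. For PNRC1 all 4 pointed up, from 0.75 to 1.84, and the 3 that cleared the filter kept the groups apart. For ZFAND5 the bright and the dim probe set pointed in opposite directions. The distance between probe sets was measured as the root mean square difference of their log2 profiles over the 6 arrays, after each profile had been centred on its own mean. The brightest PNRC1 probe set lay 0.51 from set 3, 0.60 from set 2 and 0.89 from set 4. The 2 ZFAND5 probe sets lay 1.15 apart, whereas the main ZFAND5 and main PNRC1 probe sets lay 0.23 apart. Both genes were chosen as higher in laminitis on these arrays, so a small distance between them follows in part from that choice.

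**Figure D1:**
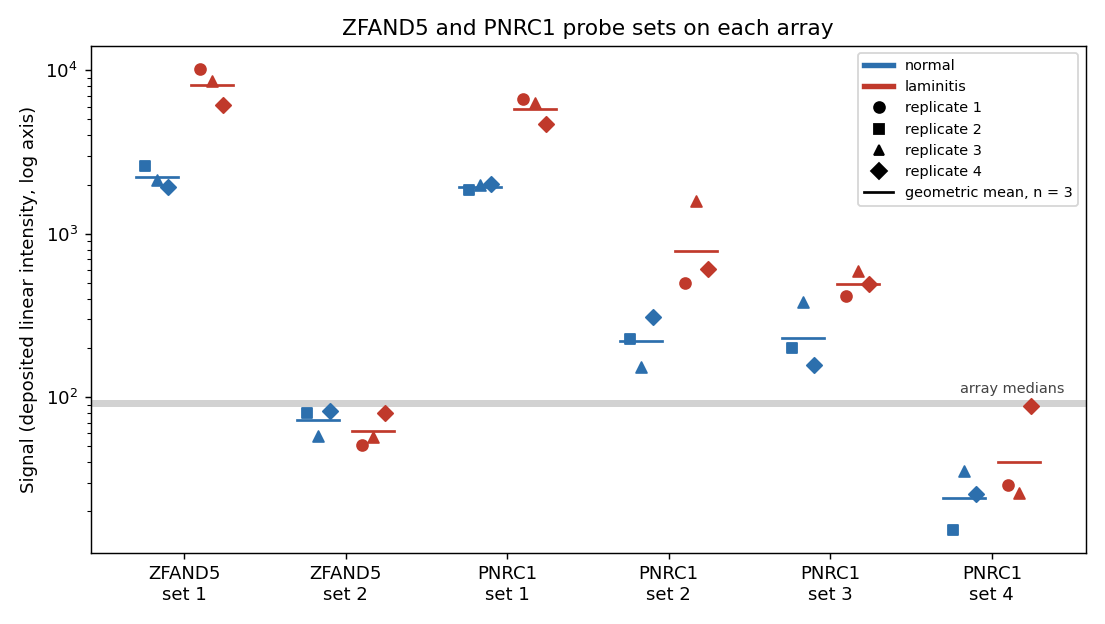
Signal of the 6 probe sets of ZFAND5 and PNRC1 on the 6 arrays (deposited linear intensity, log axis); points are arrays, with the marker giving the replicate, short lines are geometric means of 3 arrays, and the grey band spans the 6 array medians. Sets are numbered by brightness within each gene, and the bright set of each gene holds all laminitis arrays above all normal arrays, while the dimmest set of each gene lies below the array medians with overlapping groups.

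Brightness itself moved with the groups on these arrays. When the 12519 tested probe sets were ordered into 10 equal classes by mean log2 signal, the median log2 difference between laminitis and normal tissue was -0.19 in the dimmest class and 0.19 in the brightest, to which both main probe sets belong. Over all 6151 tested genes the median was -0.029. After quantile normalization, which removes such a trend, the log2 difference was 1.52 for ZFAND5 and 1.21 for PNRC1. After cyclic loess normalization the values were 1.51 and 1.25. The main probe set of each gene kept all laminitis arrays above all normal arrays under these scalings. The nearest arrays lay 0.87 apart on the log2 scale for ZFAND5 and 0.86 for PNRC1 after quantile normalization. The dimmest probe set of each gene overlapped under both scalings.

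Within laminitis the main probe sets of both genes, set 1 of each, were lowest on replicate 4. PNRC1 sets 2 and 3 were instead lowest on replicate 1, and ZFAND5 set 2 and PNRC1 set 4 were highest on replicate 4. By its mean correlation over all tested probe sets that array stood closer to the normal arrays (0.85) than to the other laminitis arrays (0.83), a description of whole arrays. Leaving it out gave the largest log2 differences of the main probe sets, 2.08 for ZFAND5 and 1.74 for PNRC1, and leaving out laminitis replicate 1 gave the smallest, 1.72 and 1.49. In normal tissue the main ZFAND5 probe set was highest on replicate 2, where the main PNRC1 probe set was lowest, and the other probe sets had other orders. The log2 ratio of the main ZFAND5 to the main PNRC1 probe set within an array was 0.48 ± 0.11 in laminitis and 0.19 ± 0.28 in normal tissue (SD, n = 3 each), and the values of the groups overlapped.

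Other measures were set beside these signals. The summed signal of the 4 measured neutrophil markers was 12992, 9885 and 1495 on laminitis replicates 1, 3 and 4, and ran from 503 to 983 in normal tissue, with S100A8 and S100A9 higher and ELANE and MPO lower in laminitis. The 4 general leukocyte markers summed to between 253 and 497 in laminitis and between 341 and 360 in normal tissue, and 1 of them, LAPTM5, was above the median on every array. CORO1A was higher in laminitis with the groups apart (mean 73.4 against 15.6) but above the median on only 1 array, while LAPTM5, PTPRC and CD53 overlapped. Monocyte and macrophage markers, 4 measured of 5, summed to between 533 and 622 in laminitis and between 458 and 514 in normal tissue. Of these CYBB was higher in laminitis (mean 251 against 61.7) and CSF1R lower (49.1 against 85.3), each with the groups apart, while CD14 and CD68 overlapped. The summed adipocyte markers, 2 measured of 3, were 86.9 to 121 in laminitis and 141 to 186 in normal tissue. That sum was mostly FABP4, lower in laminitis with the groups apart (mean 78.3 against 142). ADIPOQ was dim and overlapped (20.9 against 17.5), above the median on 0 arrays. The summed signals of endothelial, smooth muscle, T cell, Schwann cell, red cell, fibroblast and both keratinocyte lists overlapped between groups. Single markers in them lay apart and lower in laminitis, namely DCN (log2 difference -1.61), TAGLN (-0.83) and CD2 (-0.98), and PDGFRA lay apart and higher (0.35). No marker was at 0, the lowest being CD53 at 2.94. KRT14, KRT5 and KRT15 of basal keratinocytes and DCN, COL1A1 and COL1A2 of dermal fibroblasts were above the median on all 6 arrays. ITGB4, COL17A1 and LUM of the same lists were above it on 5. Markers of other cell types, such as CD3E, MPO and ACTA2, were also above it on all 6, so this does not single out the labelled tissue. The ratio of 3' to 5' signal of the array's GAPDH control, a sign of RNA integrity and labelling, ran from 4.06 to 9.70 in laminitis and from 5.51 to 6.87 in normal tissue. For actin the ratio ran from 4.71 to 6.62 in laminitis and from 2.08 to 6.25 in normal tissue. The part of these measures in the ZFAND5 and PNRC1 signals was not tested. In whole tissue, fewer cells of a type and less RNA per cell cannot be told apart.

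The same root mean square distance was used to find the genes whose pattern over the 6 arrays was most like each of the pair. The median distance of the other 6150 tested genes was 1.03 from ZFAND5 and 0.88 from PNRC1. Nearest to ZFAND5 was PNRC1 itself, followed by the chemokine CCL2 (0.24), the polyadenylation factor CSTF2 (0.26), the glutamine synthetase GLUL (0.31) and the casein kinase CSNK1A1 (0.32). Nearest to PNRC1 was CCL2 (0.12), followed by NFKBIA, the inhibitor of NF-kB (0.20), CSNK1A1 (0.22), ZFAND5 and PNKD (0.23 each). The pair was chosen for its contrast between laminitis and normal on these arrays. Nearness of the pair to each other, and to genes with a similar contrast, is therefore partly built in.

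CCL2 read 635.9, 728.5 and 523.6 on laminitis replicates 1, 3 and 4 and 226.4, 206.4 and 205.2 on normal replicates 2, 3 and 4. Like PNRC1 it showed little spread among the normal arrays and was lowest of the laminitis arrays on replicate 4. CSTF2 was much dimmer, at 174.5, 181.7 and 106.6 in laminitis and 51.4, 44.3 and 24.02 in normal tissue, so its log2 difference of 1.98 ± 0.36 rests on normal signals below the array medians and was 1.06 with 64 added before log2. CSTF2 passed the filter through its laminitis arrays alone. GLUL read 3586, 2542 and 1751 in laminitis and 1217, 982.4 and 927.1 in normal tissue, and its order among the 6 arrays was that of ZFAND5. The neighbours depended on the scaling. After quantile normalization 1 of the 5 nearest to ZFAND5 and 2 of the 5 nearest to PNRC1 were still among the 5, and PNRC1 was then the 6th nearest gene to ZFAND5 and ZFAND5 the 22nd nearest to PNRC1.

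**Figure D2:**
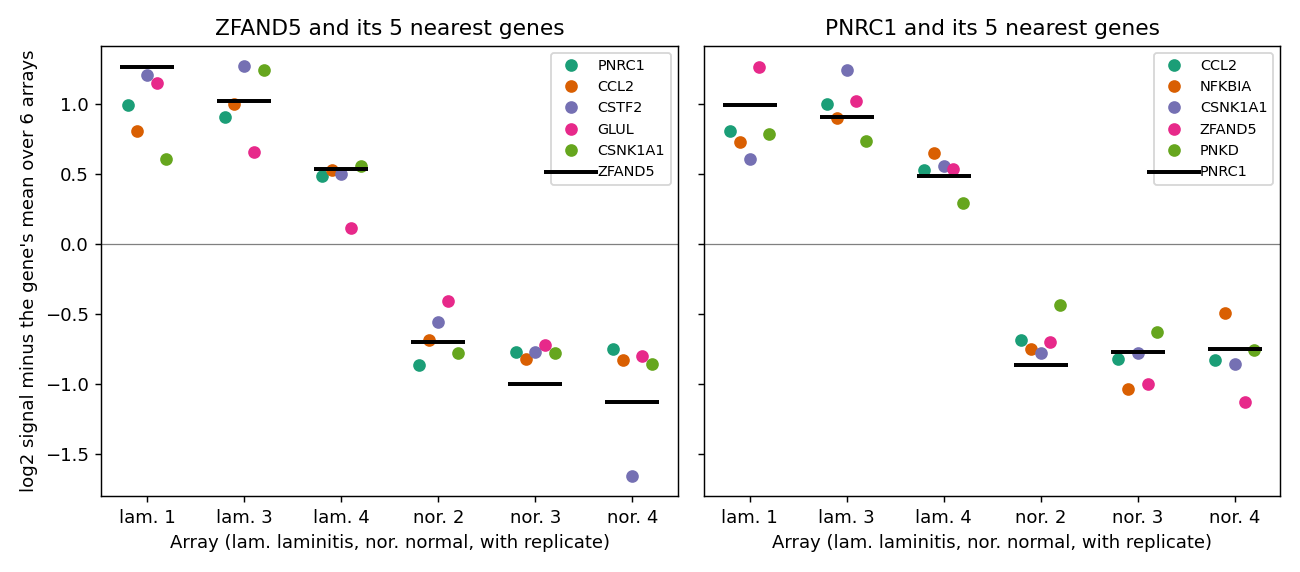
Log2 signal of ZFAND5 (left, black bars) and PNRC1 (right, black bars) on each array, after subtraction of the gene's own mean over 6 arrays, with the 5 genes of smallest root mean square distance as coloured points. In both panels the bars and points are positive on the 3 laminitis arrays and negative on the 3 normal arrays, and laminitis replicate 4 holds the lowest bar of the laminitis arrays.

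Relatives and partners of the pair were then read from lists of genes, of which 90 of 158 were tested. Over all genes, limma with Benjamini-Hochberg adjustment called 0% of 6151 genes higher and 0% lower at 0.05, while 324 were higher and 278 lower at an unadjusted p under 0.05. None of the 88 list genes besides ZFAND5 and PNRC1 passed in limma in either direction. As a second description, the groups lay apart without overlap for 8.7% of all tested genes with laminitis higher and for 8.36% with laminitis lower. Among the 88 list genes this held for 13 (14.8%) above and 6 (6.82%) below. The median log2 difference of the 88 was 0.11, and 56 were positive. With 1 array left out, which makes separation easier, the number above ranged from 15 to 28, and over all genes the share was higher too, at 17% without laminitis replicate 4, 13.8% without normal replicate 4 and 13.1% without laminitis replicate 1. The list counts without those arrays were 28, 24 and 20.

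Among the A20 and AN1 zinc finger proteins, 5 relatives of ZFAND5 were tested, with log2 differences from -0.58 to 0.70 and a median of 0.057. ZFAND6, the closest paralogue of ZFAND5, read 1295, 1161 and 909.0 on laminitis replicates 1, 3 and 4 and 1295, 1315 and 919.1 on normal replicates 2, 3 and 4. Its groups overlapped almost wholly, with a log2 difference of -0.065 ± 0.24. ZFAND2A, an AN1 protein induced by arsenite and heat, read 213.2, 296.7 and 195.7 in laminitis and 386.0, 335.3 and 320.0 in normal tissue. All its laminitis arrays lay below all normal arrays, with a log2 difference of -0.58 ± 0.23 that did not pass (limma adjusted p 0.494). ZFAND2B, an AN1 protein of the endoplasmic reticulum membrane, had 0.057 ± 0.28, and RABGEF1, a Rab5 exchange factor with an A20-type finger, had 0.70 ± 0.34, both with overlapping groups. RABGEF1 was 0.38 without normal replicate 3 and 0.44 with 64 added before log2.

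ZFAND3 had probe sets that disagreed. The brighter one read 1344, 1174 and 1170.4 in laminitis and 1003, 919.4 and 1169.7 in normal tissue, a log2 difference of 0.26 ± 0.19, with the groups touching. The dimmer one read 220.1, 176.6 and 187.7 in laminitis and 39.9, 48.3 and 72.1 in normal tissue. Its log2 difference was 1.91 ± 0.27 (limma adjusted p 0.136), about the size seen for ZFAND5, with every normal value below the array medians. With 64 added to all signals before log2 the difference was 1.15. This probe set passed the filter through its laminitis arrays alone, so its values are a description and not support for a difference.

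PNRC2, the only paralogue of PNRC1 on the list, pointed the other way. It was too dim to be tested, and it is described because its values differed from those of PNRC1 when they were seen. Its brighter probe set read 22.5, 73.3 and 52.4 on laminitis replicates 1, 3 and 4 and 104.1, 82.5 and 135.3 on normal replicates 2, 3 and 4. The dimmer one, of PNRC2, read 26.2, 13.8 and 19.8 in laminitis and 97.0, 73.1 and 63.2 in normal tissue. On both probe sets all laminitis arrays lay below all normal arrays, with log2 differences of -1.25 ± 0.48 and -1.99 ± 0.33. In a limma fit of all 24016 probe sets with no filter the adjusted p was 0.662 and 0.293. With 64 added before log2 the differences were -0.61 and -0.75, and all laminitis signals were below the array medians.

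**Figure D3:**
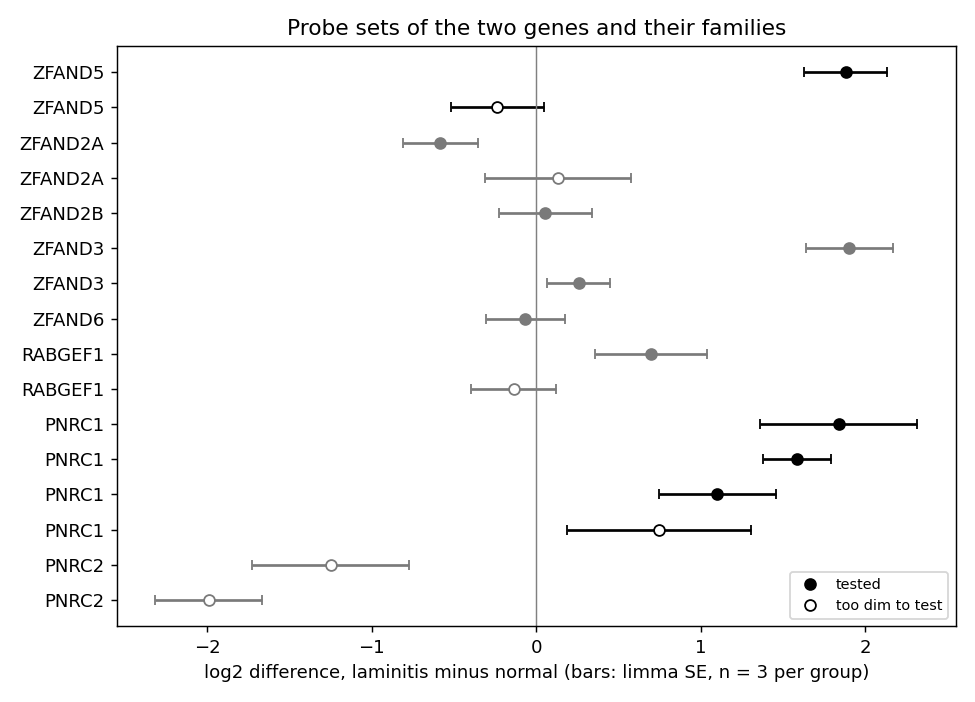
Log2 difference between laminitis and normal tissue for each probe set of ZFAND5 and PNRC1 (black) and of their measured relatives (grey), with limma standard errors and 3 arrays per group; open points were too dim to test and have errors from a fit of all probe sets. The 4 PNRC1 points lie between 0.75 and 1.84, the PNRC2 points at -1.25 and -1.99, and ZFAND5 and ZFAND3 each have a point near 1.9 and another near or below 0.26.

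Of the NF-kB signalling proteins that ZFAND5 is known to bind or resemble, TRAF6 and RIPK1 were tested. TRAF6, a ubiquitin ligase of receptor signalling, had -0.54 ± 0.23 by its brighter probe set, with the groups apart, and 0.83 ± 0.35 by the other, with the groups overlapping. RIPK1, the kinase of the TNF receptor complex, had 0.029 ± 0.30.

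The proteasome, to which ZFAND5 binds, had 26 tested subunits of 32, of which 21 had a positive log2 difference and 0 passed. For 5 subunits (19.2%) all laminitis arrays lay above all normal arrays and for 1 (3.85%) below, beside 8.7% and 8.36% over all tested genes. The list median was 0.26, beside -0.029 over all tested genes and 0.19 in the brightest of the 10 brightness classes. Several subunits are bright, such as PSMA6, with means of 5085 in laminitis and 4502 in normal tissue. The list median was not computed after other scalings, and the share of positive genes over all tested genes was not counted. A rise of the proteasome list apart from the brightness trend was thus not tested. The 2 subunits of smallest p were PSMB4, of the catalytic core, and PSMD11, of the regulatory lid. PSMB4 read 2656, 2436 and 2363 on laminitis replicates 1, 3 and 4 and 1485, 1469 and 1636 on normal replicates 2, 3 and 4, a log2 difference of 0.70 ± 0.18 (limma adjusted p 0.345). PSMD11 had 0.73 ± 0.21 (limma adjusted p 0.402). Both are bright, and after quantile normalization PSMB4 was 0.39 and PSMD11 0.27, and after cyclic loess 0.44 and 0.38. Of the genes for ubiquitin, its shuttle factors and the ligases of muscle wasting, 4 of 13 were tested. The shuttle factor UBQLN1 had 0.38 ± 0.18 and the unfolding ATPase VCP 0.25 ± 0.18, each with the groups apart, and the muscle ligase FBXO32 had 0.77 ± 0.61 with overlapping groups. UBQLN1, also bright, was 0.12 after quantile normalization and 0.143 after cyclic loess.

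The AU-rich element binding proteins, among which ZFAND5 is counted by its RNA binding, had 5 tested members of 8, all with a positive log2 difference and 0 passed in limma. The list median was 0.73, which is the value of ZFP36L1, beside -0.029 over all tested genes. It was not computed after other scalings. ZFP36L1, which promotes decay of AU-rich transcripts, read 9314, 9521 and 9137 in laminitis and 5120.3, 5183 and 6699 in normal tissue, so that the groups lay apart at 0.73 ± 0.20 (limma adjusted p 0.352). After quantile normalization it was 0.33 and after cyclic loess 0.28. A second bright probe set of ZFP36L1 gave 0.84 and a dimmer one -0.035. Its relative ZFP36 had 1.72 ± 0.43 (limma adjusted p 0.334), from 173.1, 116.5 and 229.1 in laminitis against 59.8, 28.2 and 76.3 in normal tissue, the latter below the array medians. ZFP36 passed the filter through its laminitis arrays alone, so its positive sign was favoured by the filter and is not support for a difference. With 64 added before log2 its difference was 0.99. ZFP36L2 read 3528, 2650.1 and 4029 in laminitis and 1351, 1464 and 2860.0 in normal tissue, and normal replicate 4 lay within the laminitis range.

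The lists around PNRC1 lay near the middle of all genes. Of 14 tested decapping and nonsense-mediated decay genes 6 were positive, 1 lay above and 1 below without overlap, and the median was -0.034. LSM2, of the ring that activates decapping, had 0.49 ± 0.22, and the decay kinase SMG1 had 0.54 ± 0.32. SMG1 was 0.21 without laminitis replicate 3, its highest array. DCP1A, the decapping cofactor, read 310.7, 413.9 and 403.2 in laminitis and 525.6, 445.1 and 369.1 in normal tissue, with overlapping groups. Its log2 difference was -0.245 ± 0.226 by this probe set, and other tested DCP1A probe sets gave -1.28 to 0.149. Among 13 tested nuclear receptors 4 were positive and the median was -0.12, with RXRA at 1.17 ± 0.48 (groups overlapping) and ESR2 at 0.47 ± 0.25. RXRA was 0.63 with the replicate number as a block, 0.72 with 64 added before log2 and 0.73 without normal replicate 2, and ESR2 was 0.25 without normal replicate 3. The glucocorticoid receptor NR3C1, named after its values were seen because its probe set was bright, had -0.43 ± 0.31. The 7 tested coregulators had a median of -0.16, with none apart in either direction, NCOR1 at 0.39 ± 0.24 and NCOA7 at 0.37 ± 0.24. Without normal replicate 2 NCOR1 was 0.23 and NCOA7 0.22, and NCOA7 was 0.20 with the replicate block and 0.23 without laminitis replicate 4. Other NCOR1 probe sets gave -0.52 to -0.44.

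Nucleolar ribosomal RNA processing, the step that PNRC1 can slow, had 12 tested genes of 25, of which 9 were positive and 0 passed, with a median of 0.064. Nucleolin, NCL, read 4171, 3292 and 3376 in laminitis and 2244, 2315 and 2887 in normal tissue, a log2 difference of 0.54 ± 0.21 (limma adjusted p 0.493) with the groups apart. After quantile normalization NCL was 0.155 and after cyclic loess 0.22. NOP56, of the small nucleolar particles that guide RNA methylation, had 0.74 ± 0.31 (limma adjusted p 0.508), and FBL, the methyltransferase of those particles, had 0.017 ± 0.25.

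**Figure D4:**
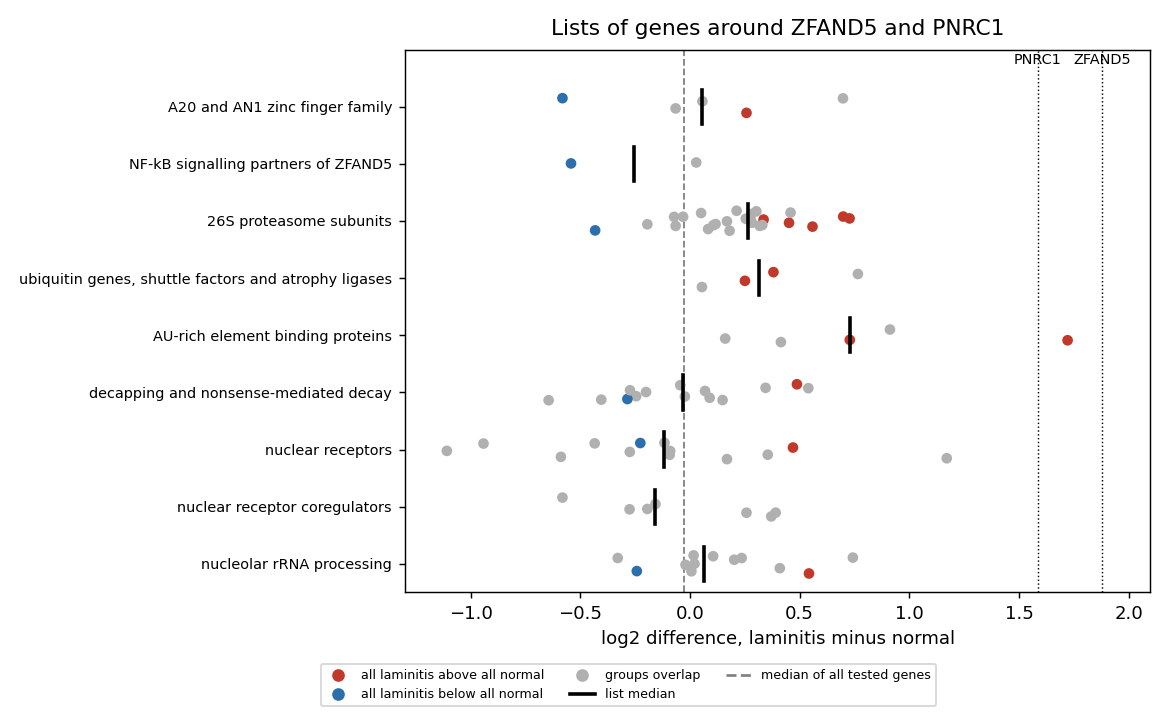
Log2 difference between laminitis and normal tissue for each tested gene of 9 lists around ZFAND5 and PNRC1, without the pair, which dotted lines mark at 1.88 and 1.59. Red points are genes with all laminitis arrays above all normal arrays, blue points the reverse and grey points overlap. Black bars are list medians and the dashed line is the median of all tested genes. Among the listed genes ZFP36 at 1.72 (0.99 with 64 added before log2) comes closest to the pair, but it passed the filter through its laminitis arrays alone.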

How the data were processed

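Per the labels' protocols, total RNA was primed with oligo(dT), amplified, biotin-labelled and hybridised to a bovine Affymetrix array. The deposited values are linear intensities with a mean of 150.02 or 150.03 per array after trimming 2% at each end. The submitters' processing notes name GCRMA, version not given, which does not yield such values, so how they were made is not settled. Array medians ran from 86.7 to 96.6.

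Of 24128 probe sets, 112 controls were left out. Symbols came from GEO's platform annotation, and both symbols are in the horse RefSeq gene table of the TB-T2T assembly. Intensities were put on the log2 scale without offset. The two-sided comparison of laminitis against normal tissue used limma 3.58.1 (lmFit, eBayes; R 4.3.3) over the 12519 probe sets above the array median on at least 3 of 6 arrays, with Benjamini-Hochberg adjustment. The tested probe set of highest mean log2 signal stood for its gene. No pair of arrays was identical. The fit was tested on simulated data. Alternatives were other scalings, an offset, other filters, variance settings, array weights, the replicate number as a block and leaving out each array.

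The genes, lists and the rule for named genes were chosen with earlier results of these data known. Named were all tested relatives and NF-kB partners, the 2 members of smallest p of each other list, and the 5 nearest genes by profile. FBXO32, ZFP36L2, DCP1A, NR3C1, FBL and PNRC2 were added after their values were seen.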

Additional observations from a re-analysis of the deposited data

How the results depend on the processing

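The log2 difference of ZFAND5 was 1.52 after quantile normalization, 1.51 after cyclic loess and 0.82 as the mean of both probe sets, and that of PNRC1 was 1.21, 1.25 and 1.32 (mean of 4 probe sets). With 1 array left out the differences ranged from 1.72 to 2.08 and from 1.49 to 1.74. Median centring, 64 added before log2 and the replicate block moved them by less than the SD between replicates pooled over both groups. The number of genes called over all genes rose from 0 to 4 with an intensity trend and robust variance and to 6 with probe sets above the median on all 6 arrays. Both counts include ZFAND5 and PNRC1, which were chosen on this contrast, so for the pair they are no test of the difference and no support for it. With 1 array left out the count ranged from 0 to 2 (CFB and SLC25A28, without laminitis replicate 4), and it was 0 under the other alternatives. The list genes called numbered 0 under every alternative run. List genes with all laminitis arrays above all normal arrays numbered 10 to 16 under other scalings, and 15 to 28 with 1 array left out. The share over all genes moved too, at 7.43% after quantile normalization, 7.95% after cyclic loess and 11.1% after median centring. With 1 array left out that share ran from 11.6% (normal replicate 3) to 17% (laminitis replicate 4).

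The replicate numbers 3 and 4 occur in both groups, but same-numbered samples did not deviate together (correlations of deviations from group means -0.017 and -0.031). With the replicate number as a block the log2 differences were 1.84 for ZFAND5 and 1.45 for PNRC1, with 0 genes called and a smallest adjusted p of 0.274 in limma. Of 27 other named genes, RIPK1, ZFAND6 and ZFAND2B, all near 0, turned sign. RIPK1 was -0.045 with the replicate block, -0.035 with array weights, and -0.185 to 0.334 with 1 array left out. ZFAND6 was 0.018 after median centring and -0.234 to 0.079 with 1 array left out, and ZFAND2B was -0.147 to 0.264. CCL2, CSNK1A1 and NFKBIA passed in limma with the strictest filter, and CCL2 with the trend. These were named for their nearness to the pair, which was chosen on this contrast, so their calls are not independent results.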
